A study of Mus musculus with 8 samples.

Results

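The Kcnq1 imprinted domain lies on mouse chromosome 7 and is represented here by 10 genes, the long noncoding RNA Kcnq1ot1 and the protein-coding genes Kcnq1, Cd81, Tssc4, Nap1l4, Osbpl5, Cars, Tnfrsf22, Tnfrsf23 and Dhcr7. These were chosen by symbol out of the 22810 genes of the deposited count table, and each of the 10 was found in it. RNA was sequenced from 8 single blastocysts on embryonic day 3.5, which had been obtained by natural mating and without in vitro culture. The 3 forward embryos had a C57BL/6 (B6) mother and a Mus musculus castaneus (cast) father, and the 5 reverse embryos, numbered 1, 2, 3, 5 and 7, had a cast mother and a B6 father. All embryos are thus hybrids of both strains, and the labels name no other genetic change or treatment. Only reads that span a SNP between the strains were counted, so that each read belongs to the maternal or the paternal allele.

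Genomic imprinting marks a gene in the egg or the sperm, so that the embryo later uses the copy of only one parent. At the Kcnq1 domain the mark is DNA methylation acquired in the egg at the promoter of Kcnq1ot1, which lies inside an intron of Kcnq1. The unmethylated paternal copy of the promoter makes a long RNA antisense to Kcnq1, and in the placenta this RNA is known to silence genes on both sides of it on the paternal chromosome, in part through histone-modifying complexes. The blastocyst is the stage just before implantation, when the trophectoderm, the source of much of the placenta, has formed around the inner cell mass. The comparison of both crosses asks which genes of the domain were already used unequally by parent at this stage, and separates parent from strain, since each strain is once the mother and once the father.

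The promoter of Kcnq1ot1 carries the imprint of the domain. Its sequence from RefSeq (GRCm38.p6, chr7:143296498-143296797, minus strand) covers 250 bases before and 50 after the start and is shown here 5′ to 3′ because it is the annotated start of Kcnq1ot1, to which these paternal reads were counted, with each CpG, the pair of bases that carries DNA methylation, in capitals.
Kcnq1ot1 promoter: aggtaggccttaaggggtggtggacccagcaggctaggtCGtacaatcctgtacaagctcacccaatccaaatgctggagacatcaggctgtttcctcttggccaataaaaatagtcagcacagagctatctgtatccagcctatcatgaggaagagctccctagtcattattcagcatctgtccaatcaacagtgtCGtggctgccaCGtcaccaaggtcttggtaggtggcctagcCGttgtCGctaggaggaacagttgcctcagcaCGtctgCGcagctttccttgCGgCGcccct
It held 9 CpGs in 300 bases. Of all 32851 promoter windows of this length, 45.8% held at least as many, and their median was 7. The hexamer TGCCGC, bound by the imprint-protecting zinc finger protein Zfp57 when methylated, was searched on both strands (GCGGCA on the other) and did not occur in this window, while 11.6% of all windows held it. These counts describe this window only, which ends shortly after the start, and the extent of the methylated region was not examined. Of the 10 genes, 6 had a promoter window in this set.

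Kcnq1ot1 was read almost entirely from the paternal allele in both crosses. The forward embryos 1, 2 and 3 had 238, 169 and 168 paternal against 30, 1 and 0 maternal reads. The reverse embryos 1, 2, 3, 5 and 7 had 306, 177, 84, 137 and 143 paternal against 1, 1, 1, 2 and 0 maternal reads. The paternal count exceeded the maternal one in 8 of 8 embryos, and the lowest paternal count lay above the highest maternal one.

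The paternal share of Kcnq1ot1 averaged 96.1% ± 6.30 (SD, n = 3 forward embryos) and 99.3% ± 0.596 (SD, n = 5 reverse embryos). It was lowest in forward embryo 1, at 88.8% (95% exact binomial interval 84.4 to 92.3%), and at least 98.6% in the other 7. Where no maternal read was seen, in forward embryo 3 and reverse embryo 7, the limit that the depth sets on the maternal share is 1.79% and 2.10% (3 counts of the total). SMART-Seq2 reads carry no molecular identifiers, so that these limits and all binomial intervals cover counting error only.

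The log2 fold change of paternal over maternal Kcnq1ot1 was 5.39 (SE 0.61, edgeR quasi-likelihood test, adjusted p = 5.61e-06), and the strain term was -0.37 (SE 0.53, adjusted p = 0.755). The gene met the criteria for blastocyst-skewed expression (BsX: a call with a log2 fold change beyond 0.5 either way, the 2 crosses in the same direction and each with 20 reads or more) and for blastocyst-imprinted expression (BiX: besides this, alleles at 70:30 or beyond in 60% or more of the forward and of the reverse embryos). Kcnq1ot1 and Kcnq1, which had nearly the same reads, were the 2 of the 10 genes to pass these tests. Of all 12564 autosomal genes tested, 1.11% were called toward the paternal allele, 0.883% met the BsX and 0.74% the BiX criteria in that direction. The median log2 fold change of the 10 genes, with Kcnq1ot1 and Kcnq1 both counted, was 0.58, and that of all genes tested -0.01.

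**Figure D1:**
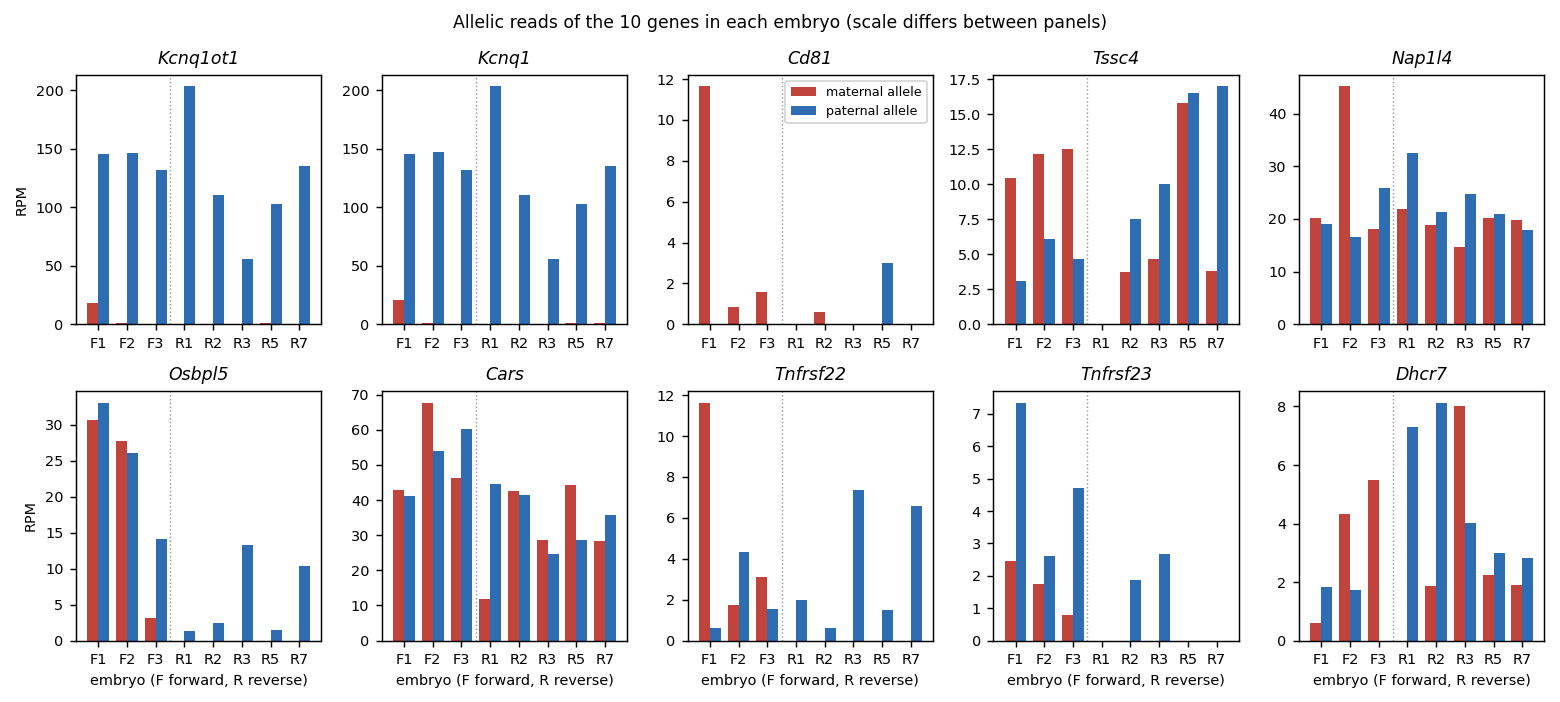
Maternal (red) and paternal (blue) RPM (reads per 1000000 SNP-spanning reads of the embryo), 1 panel for each of the 10 genes, with the 3 forward embryos (F1 to F3) left of the dotted line and the 5 reverse embryos (R1 to R7) right of it; each bar is 1 allele in 1 embryo. Kcnq1ot1 and Kcnq1 have near-identical, almost wholly paternal bars, whereas Nap1l4 and Cars have bars of both alleles in every embryo.

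The total level of Kcnq1ot1 overlapped between the crosses. It was 148 ± 16.3 RPM (reads per 1000000 SNP-spanning reads of the embryo; SD, n = 3) in the forward cross and 122 ± 53.8 RPM (SD, n = 5) in the reverse cross, where reverse embryo 1 had the highest level of all, 204, and reverse embryo 3 the lowest, 56.7. The difference between crosses did not pass the test (log2 fold change of reverse over forward -0.30, SE 0.33, edgeR adjusted p = 0.861). Of 8 trophectoderm genes, 4 were lowest in reverse embryo 1 (the keratin genes Krt8 and Krt18, Eomes and Cdx2), 2 were highest there (Tead4 and Tfap2c) and 2 lay between. The sum of the list was 1317 RPM in that embryo and between 3945 and 5270 in the other 7, a gap carried by the keratins, as Krt8 was at 303 against 1552 to 2352 RPM, while Tead4 was at 387 against 191 to 300.3 RPM. The part of these differences in the level of Kcnq1ot1 was not tested. In whole embryos, fewer cells of a type and less RNA per cell cannot be told apart.

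Across all 16 allele libraries (2 of each embryo), the genes whose pattern was most like that of Kcnq1ot1 among 9328 genes with at least 100 reads were Kcnq1 (Pearson r of log2(RPM + 1) 0.993), Slc38a1 (0.985), Bbx (0.966), Mbnl2 (0.963) and Gm33149 (0.963). Apart from Kcnq1 they lie on chromosomes 15, 16, 14 and 15. Each was read mostly from the paternal allele, as with Slc38a1, which had 458 paternal and 8 maternal reads. The libraries share embryos and depth, so that these values are a description.

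Kcnq1, which encodes a voltage-gated potassium channel, had the same counts as Kcnq1ot1 in 13 of 16 allele libraries. Over all libraries it had 1464 reads and Kcnq1ot1 1458. The 6 further reads were 5 maternal and 1 paternal, and 4 of the maternal ones were in forward embryo 1. The values of Kcnq1, a log2 fold change of 5.22 (SE 0.60, edgeR adjusted p = 7.37e-06) with both sets of criteria met, thus rest on nearly the same counts as those of Kcnq1ot1 and are no second result.

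The annotation (GENCODE M21, mm10) shows how the 2 genes lie together. Kcnq1 spans chr7:143106362-143427042 on the plus strand, and Kcnq1ot1 spans chr7:143203458-143296549 on the minus strand, wholly inside it. Within these 93092 bases Kcnq1 has a single annotated exon, exon 11 of the 16 of its longest transcript, which is coding. Its 121 bases (mm10, chr7:143261256-143261376, plus strand) are shown because all the rest of the shared stretch is intronic for Kcnq1.
Kcnq1 exon: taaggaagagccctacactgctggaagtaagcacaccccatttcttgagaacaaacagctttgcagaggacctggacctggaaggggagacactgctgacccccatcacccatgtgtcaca
The sources used here do not state whether reads were counted by strand. The 2 genes lie on opposite strands and had nearly the same counts, so that reads at this locus were not separated by strand. No read can be given to the channel gene rather than to the RNA antisense to it, beyond the 6 that differed.

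Cd81 and Tssc4 lie on the other side of Kcnq1, and their starts are at -243.8 and -227.3 kb from that of Kcnq1ot1, where minus means toward lower coordinates. In the placenta both are known as genes silenced on the paternal copy. Cd81, which encodes a tetraspanin of the cell surface, was hardly read. The forward embryos had 19, 1 and 2 maternal and no paternal reads. Reverse embryo 2 had 1 maternal read, reverse embryo 5 had 4 paternal reads, and the other 3 reverse embryos had no read. In forward embryos 0 of 22 reads were paternal, which allows a share of up to 13.6%.

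For Cd81 the log2 fold change of paternal over maternal was -2.55 (SE 1.19, edgeR adjusted p = 0.636). The strain term was -3.78 (SE 1.25, edgeR adjusted p = 0.0525), toward B6, which had 26 of 27 reads. With a term for each embryo it was -3.05 and no longer called (adjusted p = 0.365), nor did it pass without reverse embryo 5 (-3.24, adjusted p = 0.218) or by DESeq2 (-3.14, adjusted p = 0.285). Without forward embryo 1, Cd81 had too few reads to be tested. Cd81 was the 1 of the 10 genes called between the strains without the embryo term, while 10.9% of all genes tested were called toward B6 and 4.47% toward cast. Cd81 also overlaps the gene R74862. Reads where they overlap may not be told apart, since the counts of Kcnq1 and Kcnq1ot1 were not separated by strand.

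Tssc4, which encodes a factor of spliceosome assembly, had more reads from the B6 allele in 7 of the 7 embryos with reads. The forward embryos had 17, 14 and 16 maternal (B6) against 5, 7 and 6 paternal (cast) reads. Reverse embryo 1 had none, and reverse embryos 2, 3, 5 and 7 had 6, 7, 21 and 4 maternal (cast) against 12, 15, 22 and 18 paternal (B6) reads. The paternal share averaged 27.8% ± 5.32 (SD, n = 3 forward embryos) and 67.0% ± 12.5 (SD, n = 4 reverse embryos), without overlap. Part of this is shared by all genes together, as B6 had the larger share of all reads in both crosses. The maternal share of all reads was 57.7 to 58.3% in forward and 41.9 to 42.6% in reverse embryos. B6 had 114 and cast 56 reads in all. The strain term of -0.77 (SE 0.66, edgeR adjusted p = 0.55) and the parental log2 fold change of -0.24 (SE 0.66, adjusted p = 1) did not pass the test.

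On the other flank, Nap1l4 and Cars were read from both alleles in all 8 embryos. Nap1l4, which encodes a histone chaperone, had between 40 and 82 reads in each embryo, with a paternal share of 44.7% ± 16.4 (SD, n = 3 forward embryos) and 54.8% ± 6.29 (SD, n = 5 reverse embryos). The widest departure was in forward embryo 2, with 52 maternal and 19 paternal reads. Its parental log2 fold change was -0.08 (SE 0.28). A pair of one-sided tests placed it within a log2 margin of 1 (edgeR, equivalence adjusted p = 0.0236).

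Cars, which encodes the cysteine-tRNA ligase of the cytoplasm, had between 68 and 140 reads in each embryo. Its paternal share averaged 49.9% ± 6.23 (SD, n = 3 forward embryos) and 53.9% ± 15.2 (SD, n = 5 reverse embryos). The other embryos lay between 39.2 and 56.6%, and reverse embryo 1, with 18 maternal and 67 paternal reads, was at 78.8% (exact binomial interval 68.6 to 86.9%). This is the embryo with low Krt8 and Krt18 and high Tead4 and Tfap2c, whose part in this was not tested. The parental log2 fold change of Cars was 0.04 (SE 0.29), also within the margin (equivalence adjusted p = 0.0233). Of all genes tested 35.4% passed this equivalence test, as did these 2 of the 10. With the margin set at 1.5-fold neither they nor any other gene passed.

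Osbpl5, which encodes a lipid transfer protein of the oxysterol-binding family and is known as maternally expressed in the placenta, had a different pattern in each cross. The forward embryos 1, 2 and 3 had 50, 32 and 4 maternal and 54, 30 and 18 paternal reads. The reverse embryos had no maternal read in any of 5, and 2, 4, 20, 2 and 11 paternal reads. Both alleles were thus read in the 3 forward embryos, and only the paternal (B6) one in the reverse embryos.

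Over the reverse embryos 39 of 39 Osbpl5 reads were paternal, which allows a maternal share of up to 7.69%. Over the forward embryos 102 of 188 were paternal, a share of 54.3% (exact binomial interval 46.8 to 61.5%). The fit without pairing gave a parental log2 fold change of 1.42 (SE 1.14, edgeR adjusted p = 1). Both alleles of an embryo form a pair, and with a term for each embryo the value was 3.33 toward the paternal allele (adjusted p = 0.0067), with a strain term of -2.44 toward B6 (adjusted p = 0.015). In the forward embryos these terms point to opposite alleles, and in the reverse embryos to the same one.

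The blocked call of Osbpl5 held without any 1 embryo in turn, with log2 fold changes between 2.99 and 3.56 and adjusted p between 0.0025 and 0.0592, the highest without forward embryo 1. In that fit 3 of the 10 genes, Kcnq1ot1, Kcnq1 and Osbpl5, were called toward the paternal allele, against 2.08% of all genes tested. Of these, Kcnq1ot1 and Kcnq1 rest on nearly the same reads. Osbpl5 was the 1 of the 10 called toward B6, against 15.7% of all. Kcnq1ot1 had a log2 fold change of 5.96 (adjusted p = 1.51e-10) with the embryo term. Its strain term there was -0.89 (edgeR adjusted p = 0.207).

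**Figure D2:**
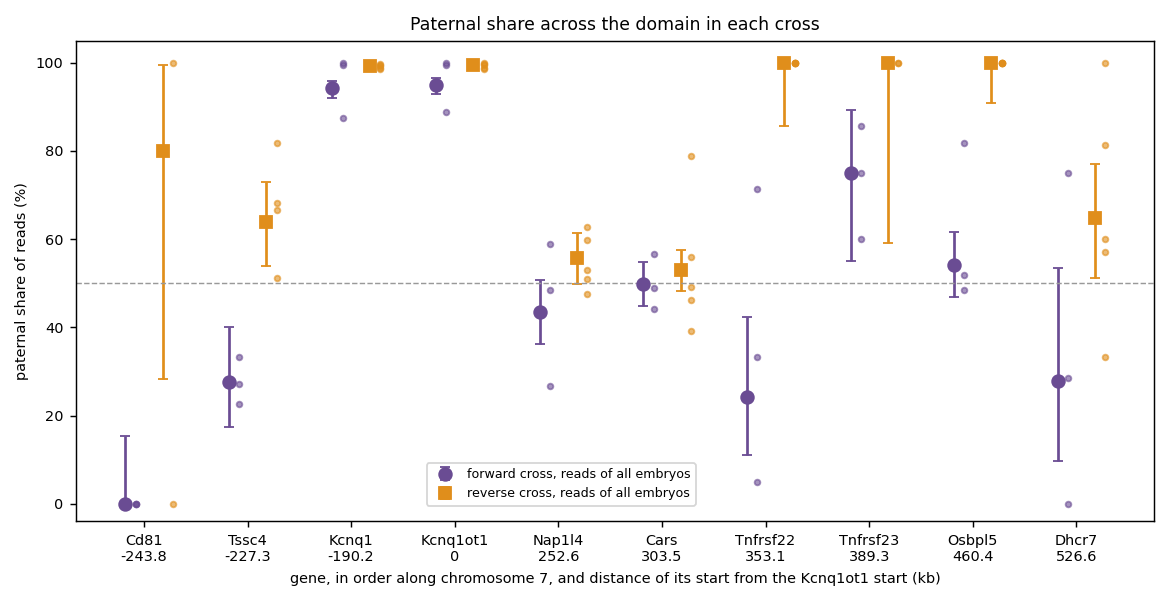
Paternal share of SNP-spanning reads (percent) of each gene in forward (purple circles) and reverse (orange squares) embryos, with the genes in their order along chromosome 7; large symbols pool all embryos of a cross with exact 95% binomial intervals, small points are single embryos with reads, and the dashed line is at 50%. Kcnq1ot1 and Kcnq1 lie above 90% in both crosses, Nap1l4 and Cars near the line, and Osbpl5, Tnfrsf22 and Tnfrsf23 at 100% in the reverse cross and below it in the forward cross. Over all genes B6 had the larger share of reads in both crosses, so that all reads together do not lie on the line.

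The level of Osbpl5 also separated the crosses. Its total was 17.2 to 63.7 RPM in the 3 forward embryos and 1.33 to 13.3 in the 5 reverse embryos, without overlap. The log2 fold change of reverse over forward was -2.86 (SE 0.73, edgeR adjusted p = 0.298). DESeq2 gave -2.82 and called it (adjusted p = 0.0683). By edgeR 0 of the 10 genes were called between crosses, 2 of them (Osbpl5 and Cars) had an unadjusted p under 0.05, as had 7.4% of all genes tested, and DESeq2 called 1. Of all genes tested edgeR called 0.0637% higher in forward and 0.0398% higher in reverse embryos, and DESeq2 called 0.287% higher in forward embryos. For Cars the levels were 104 ± 18.9 RPM (SD, n = 3 forward embryos) and 66.1 ± 12.4 RPM (SD, n = 5 reverse embryos), a log2 fold change of -0.64 (SE 0.30, edgeR adjusted p = 0.665).

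Tnfrsf22 and Tnfrsf23, neighbours that encode decoy receptors of the TNF family, lie between Cars and Osbpl5 and had few reads. For Tnfrsf22 the forward embryos had 19, 2 and 4 maternal and 1, 5 and 2 paternal reads. The reverse embryos had no maternal and 3, 1, 11, 2 and 7 paternal reads. Over the reverse embryos 24 of 24 reads were paternal, which allows a maternal share of up to 12.5%, whereas in forward embryos 8 of 33 were, a share of 24.2% (exact binomial interval 11.1 to 42.3%). B6 had 49 of the 57 reads.

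Neither term of Tnfrsf22 passed the edgeR test, but the strain term lay near its threshold. The parental log2 fold change was 1.11 (SE 0.92, edgeR adjusted p = 1), and 2.07 in the fit with the embryo term (adjusted p = 0.648). The strain term was -2.33 (SE 0.97, adjusted p = 0.137), or -2.94 with the embryo term (adjusted p = 0.1003). DESeq2 called it toward B6 (-2.53, adjusted p = 0.0988), as did edgeR with 1 library size per embryo (-2.59, adjusted p = 0.0753) and without forward embryo 2 (-3.33, adjusted p = 0.0633). Without forward embryo 1 it was -1.61 (adjusted p = 0.453). Of the 25 maternal reads 19 were in forward embryo 1, and without it the parental value was 2.20 (adjusted p = 0.925).

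Tnfrsf23 had 4, 2 and 1 maternal and 12, 3 and 6 paternal reads in the forward embryos. Reverse embryos 2 and 3 had 3 and 4 paternal reads, the other 3 had none, and no reverse embryo had a maternal read. The paternal count was higher in 5 of the 5 embryos with reads. The parental log2 fold change of 1.93 (SE 1.20, edgeR adjusted p = 0.945) did not pass, on 35 reads in all. Without forward embryo 1, which held 12 of the 28 paternal reads, Tnfrsf23 had too few reads to be tested. The coding sequences of the 2 receptor genes were identical at 479 of 528 aligned bases (90.7%), with a longest shared run of 102 bases. Reads mapping to several places were excluded, so that reads of such runs may be missing from both.

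Dhcr7, the reductase of the last step of cholesterol synthesis, marks the far end, 526.6 kb from the Kcnq1ot1 start. The forward embryos had 1, 5 and 7 maternal and 3, 2 and 0 paternal reads. The reverse embryos 1, 2, 3, 5 and 7 had 0, 3, 12, 3 and 2 maternal and 11, 13, 6, 4 and 3 paternal reads. Single embryos thus ranged from a paternal share of 0% in forward embryo 3 to 100% in reverse embryo 1, on 4 to 18 reads each. The parental log2 fold change was -0.32 (SE 0.85, edgeR adjusted p = 1), and the paternal count was higher in 5 of 8 embryos.

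**Figure D3:**
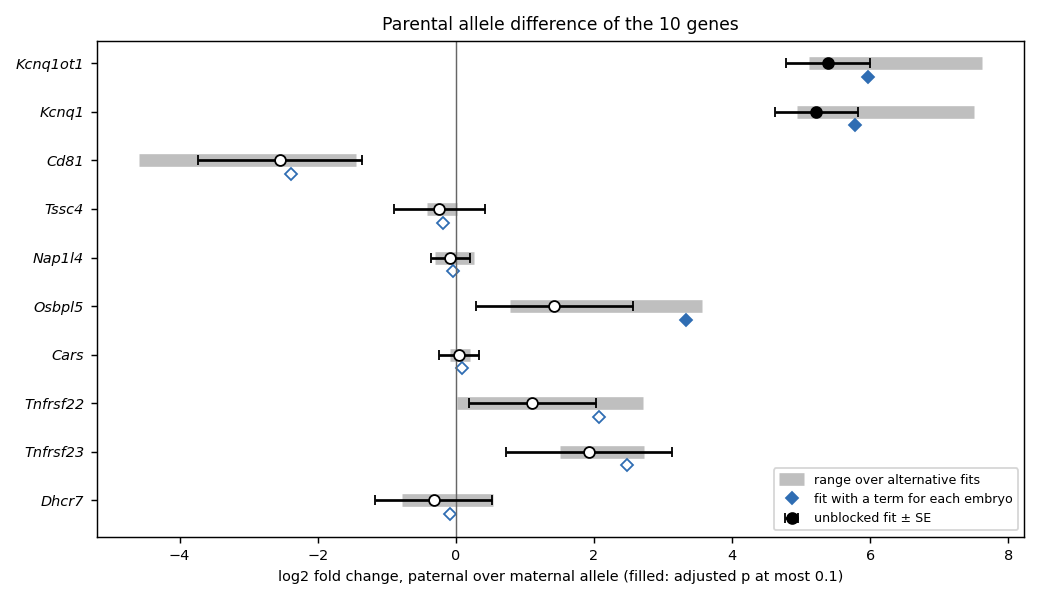
Log2 fold change of the paternal over the maternal allele for the 10 genes: circles with bars are the fit without pairing ± SE, diamonds the fit with a term for each embryo, grey bars the range over the alternative fits, and filled symbols have an adjusted p of at most 0.1. Kcnq1ot1 and Kcnq1 are filled in both fits and Osbpl5 only in the fit with the embryo term, at 3.33.

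Several maternal reads above came from 1 library. Forward embryo 1 held 30 of the 36 maternal reads of Kcnq1ot1, 19 of the 23 of Cd81, 19 of the 25 of Tnfrsf22 and 50 of the 86 of Osbpl5. For Osbpl5 its paternal count was also the highest, 54 against 30 and 18 in forward embryos 2 and 3. Other members had a smaller part there, with 17 of 85 maternal reads of Tssc4, 33 of 241 of Nap1l4, 70 of 425 of Cars and 1 of 33 of Dhcr7. In the same library a list of 8 leukocyte genes summed to 1129 maternal reads and 1 paternal read, against 48 and 44 maternal reads in forward embryos 2 and 3 and between 4 and 7 in the reverse embryos. All 8 genes had a read there. Lyz2, the lysozyme of macrophages, made up 1055 of these maternal reads, and Ptprc, the common leukocyte antigen, had 27 and was at 0 in the other 7 embryos. Without forward embryo 1 the parental log2 fold change of Kcnq1ot1 was 7.54 (edgeR adjusted p = 1.92e-09). The part of other cells in the maternal reads of forward embryo 1 was not tested.

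**Figure D4:**
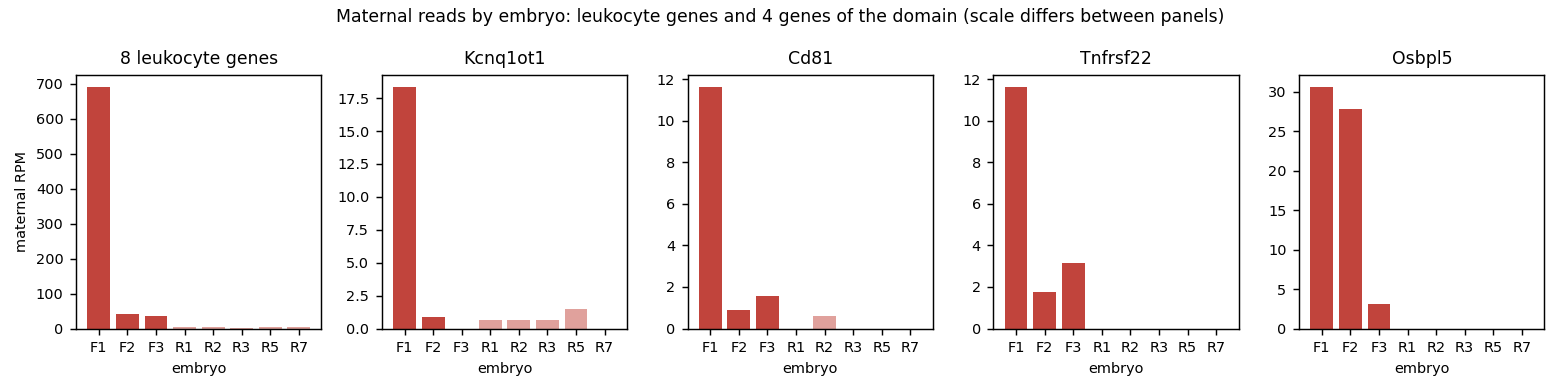
Maternal RPM in each embryo for the sum of 8 leukocyte genes and for Kcnq1ot1, Cd81, Tnfrsf22 and Osbpl5 (F1 to F3 forward, dark; R1 to R7 reverse, light). Forward embryo 1 has the highest bar in each panel, 691 for the leukocyte genes and 18.4 for Kcnq1ot1, and forward embryo 2 comes near it only for Osbpl5. Tssc4, Nap1l4, Cars and Dhcr7, not drawn, had lower maternal RPM in forward embryo 1 than in forward embryo 2.

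The other genes of the domain and its surroundings were taken as a list of 25, of which 19 had a row and 11 enough reads for the test. The genes best known as silenced by Kcnq1ot1 had few SNP-spanning reads, which does not show how much they were expressed. Cdkn1c, an inhibitor of the cell cycle, had 2 reads in all, Phlda2, a regulator of placental growth, had 3, the transporter gene Slc22a18 had 4 and the trophoblast factor Ascl2 had 4. Their allelic use was not detectable at this depth. The median parental log2 fold change of the 11 tested genes was 0.04, with a range from -7.61 to 1.35, the highest for the growth factor gene Igf2 (12 maternal and 31 paternal reads, adjusted p = 1).

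Of those 11 genes H19, the noncoding RNA of the neighbouring imprinted cluster, was called toward the maternal allele (log2 fold change -7.61, SE 1.11, edgeR adjusted p = 0.00378), against 0.31% of all genes tested. It had 100, 20 and 25 maternal reads in the forward embryos and no paternal read, and the reverse embryos had no read of either allele, so that parent, strain (adjusted p = 8.86e-04 toward B6) and cross (adjusted p = 0.0205, higher in forward) share the same 145 reads. The embryo term ended the parental call (-4.19, adjusted p = 1). Without forward embryo 1, which held 100 of the reads, it was -6.89 (adjusted p = 0.0978).

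Ctsd, Ppfia1 and Cttn, which flank the domain further out, passed the equivalence test with edgeR adjusted p of 0.0182, 0.0216 and 0.0253, which makes 3 of 11, against 35.4% of all genes tested. Cttn, the gene of the actin-binding protein cortactin, was also called toward B6 (strain log2 fold change -1.09, SE 0.30, edgeR adjusted p = 0.0168), with 2278 B6 and 842 cast reads. It and H19 were 2 of 11 so called, against 10.9% of all genes tested. Its B6 count was higher in 8 of 8 embryos.

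A second list held 17 genes of the machinery that protects imprints or acts with Kcnq1ot1, of which 16 were tested. It included Trim28, Hnrnpk and Zfp57, the last of which binds methylated imprints. It also held the maintenance methyltransferase Dnmt1 with its partner Uhrf1, and the histone methyltransferase genes Ehmt2 and Ezh2. By edgeR 0 of the 16 were called between the parental alleles, 1 had an unadjusted p under 0.05 and DESeq2 called 0. That gene was Dnmt1, with a log2 fold change of 0.99 (SE 0.35, adjusted p = 0.308), or 1.05 with a term for each embryo, where it passed (adjusted p = 0.0133). It had 670 paternal and 332 maternal reads. Of the 16 genes 11 passed the equivalence test, against 35.4% of all genes tested, including Trim28, Setdb1, Ehmt1, Ezh2 and Eed, and the lowest fold change was that of Zfp57 (-1.11, SE 0.73, adjusted p = 0.995). Uhrf1 (strain log2 fold change -1.92, SE 0.24) and Dppa3 (-1.58, SE 0.31, adjusted p = 0.00106), which guards maternal methylation in the zygote, were called toward B6, 2 of 16 against 10.9% of all genes tested. Toward cast 0 of the 16 were called, against 4.47% of all genes tested. With a term for each embryo 3 of the 16 were called toward cast. That fit called 3209 of all 12564 genes between strains, 1968 of them toward B6 and only the rest toward cast. The median parental log2 fold change of the list was 0.02.

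The depth behind these values was 1060063 to 1632695 SNP-spanning reads in an embryo. The maternal share of all reads was 57.7 to 58.3% in forward and 41.9 to 42.6% in reverse embryos, so that B6 had the larger share in both crosses. All trophectoderm, inner cell mass and primitive endoderm genes listed had reads in each of the 8 embryos. The levels of different genes are not compared here, because the number of SNPs and the length that could give a read differ between them.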

How the data were processed

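RNA of single blastocysts had been sequenced after amplification by a SMART-Seq2 compatible protocol. According to the methods, the authors aligned reads to mm10 with STAR, excluded reads mapping to several places and kept reads over strain SNPs. The submitters' processing notes name STAR 2.5.2b, SAMtools 1.9-92 and bedtools. The deposited values are raw counts, without normalisation, of the SNP-spanning reads that each strain's allele of a gene had in an embryo. Embryos were grouped by the cross named in the labels. Litters are not given, so that p-values concern these embryos only. The allele fit without the embryo term took the allele libraries as separate, so that its p-values measure the spread between libraries. Those of the comparison of crosses measure the spread between embryos.

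The counts were tested with edgeR 4.0.16 (R 4.3.3, limma 3.58.1), using TMM factors over 16 allele libraries, strain and parent as terms, the quasi-likelihood test and Benjamini-Hochberg adjustment over 12564 autosomal genes with at least 10 reads in at least 1 library. A gene was called at an adjusted p of at most 0.1. BiX ratios used a pseudocount of 0.1 and likeness a pseudocount of 1. Equivalence used a pair of one-sided tests, and crosses were compared on embryo totals. The study itself used DESeq2, which was run as an alternative (1.42.0). The alleles of an embryo form a true pair. Their deviations from the group means correlated at 0.0821 to 0.132 in forward and 0.145 to 0.487 in reverse embryos. The fit with a term for each embryo is given where it changes a call of the domain genes, and for some genes of the lists. Tests were tried on simulated data that drew each allele library separately, without pairs within embryos, so that the trial does not bear on the pairing. Binomial intervals are exact (SciPy 1.17.1).

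The 10 members and all gene lists were chosen with earlier results of these data known. Of the lists, genes that pass a test or lie first or last are named. Positions come from GENCODE M21 and promoters from RefSeq. Cumulus, oocyte, red blood cell and uterine or oviduct lists were also summed and reached at most 7.35, 20.2, 0.943 and 44.3 RPM in any embryo. Only 3 of 6 cumulus and 1 of 4 red blood cell genes had a row, so that low sums do not show absence. The cumulus and oocyte sums were highest in forward embryo 1, the red blood cell sum in reverse embryo 7 and the uterine or oviduct sum in forward embryo 2.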

Additional observations from a re-analysis of the deposited data

Results flagged for a closer look

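The level of Cd81 in reverse embryo 5 was 3.00 RPM, all from 4 paternal reads, while the other 4 reverse embryos had 0 to 0.626, so that it lay apart from its group. The level of Nap1l4 was 54.5 RPM in reverse embryo 1 and lay apart from 37.7 to 41.3 in the other 4. Among 16 sets of values examined in this way, chance sets apart about 1 in 20.

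The strain term of Cd81, which tests whether its parental ratio differs between crosses, was called at -3.78 (edgeR adjusted p = 0.0525). The fit with the embryo term did not call it (adjusted p = 0.365), and 19 of the 27 reads were in forward embryo 1. Cd81 had enough reads for the test only through the maternal allele of that embryo. The reverse embryos had 5 reads in all, too few to show whether the ratio differed.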

How the results depend on the processing

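Kcnq1ot1 and Kcnq1 were called toward the paternal allele in each of 26 alternative fits, with log2 fold changes of Kcnq1ot1 between 5.11 and 7.62. The number of members called between parents was 2, and 3 with the embryo pairing (replicate block), which added Osbpl5. The number called between strains (1, Cd81) was also 1 with DESeq2 and with the block, but the gene was Tnfrsf22 and Osbpl5, respectively. It was 2 with 1 library size per embryo (Cd81 and Tnfrsf22), 0 with at least 10 reads in every embryo, between 0 and 2 without single embryos, and between 1 and 3 without single embryos under the block. Under the block without forward embryo 3 the genes were Osbpl5, Kcnq1ot1 and Kcnq1. The number equivalent (2) was 0 at a margin of 1.5-fold and between 1 and 3 without single embryos. The number differing between crosses (0) was 1, Osbpl5, without a filter on low counts and with DESeq2, and between 0 and 1 without single embryos. Without forward embryo 2 or 3 Nap1l4 was not called equivalent, and Tssc4 was without reverse embryo 1.

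Small parental fold changes turned sign, none of them called. Dhcr7 was at 2e-04 without a strain term. Without single embryos Dhcr7 turned to 0.15 and 0.19 (range from -0.73 to 0.19), Nap1l4 to 0.26 (from -0.31), Cars to -0.0644 and -0.0806 (up to 0.16) and Tssc4 to 0.0137 (from -0.42). Under the block without single embryos, Dhcr7 turned to 0.53, 0.26 and 0.0214, Nap1l4 to 0.24 and 0.0062 and Cars to -3e-04 and -0.0774. The causes were not tested.

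The number of all genes called between parents was 178, and was 390 with the block, 412 without a filter, 75 with at least 10 reads in every embryo, 306 with legacy = FALSE and 524 when X-linked genes and those lacking a chromosome were kept. Between strains it was 1933, with 3209 under the block, 1062 with at least 10 reads in every embryo and between 1205 (without forward embryo 1) and 2449 without single embryos. Between crosses it was 13, with 130 by DESeq2, 144 without a filter, 28 with legacy = FALSE, 0 with at least 10 reads in every embryo and between 3 and 163 without single embryos. For equivalence it was 4444, with 0 at the 1.5-fold margin and between 1615 and 5658 without single embryos. The block combined with leaving out embryos, and the alternatives of the strain term of Tnfrsf22, were added after seeing the data. Cd81, Tnfrsf22, Tnfrsf23 and Dhcr7 rest on 27 to 75 reads in all.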
